A study of Homo sapiens with 35 samples.

Results

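The response of U937 cells labelled as a SUV39H1 single knockout (SKO) to TPA was described from 6 RNA sequencing libraries, 3 of TPA-treated and 3 of untreated cells, out of 35 libraries in 13 groups in the series. The libraries were taken by their labels and not by any measured value. U937 is a human line of monocyte-like acute myeloid leukaemia cells, and TPA is the usual short name of a phorbol ester. The series asks how SUV39H1 and SUV39H2, methyltransferases that place repressive marks on lysine 9 of histone H3, bear on immune gene expression in such cells. The SKO cells carried a guide against SUV39H1, named sgSUV39H1-3 in the header of the untreated libraries. The comparison groups were U937 cells with the control guide sgControl and cells with guides against both genes (sgSUV39H1/2, DKO), each with 3 TPA-treated and 3 untreated libraries. The untreated DKO libraries carry a clone number in their names, whereas nothing in the labels says whether the SKO cells were 1 clone or a pool. All groups came from the same line, and neither a dose nor a time of TPA is given in the sources used here. All TPA-treated libraries stand in one deposited table and all untreated U937 libraries in another, so that treatment and table cannot be told apart in any value below.

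Phorbol esters mimic diacylglycerol, the lipid that activates protein kinase C. Downstream of it, the ERK kinases and NF-kB switch on immediate early genes, among them FOS and JUN, whose products form the transcription factor AP-1. In U937 and related lines the treatment is a classical way to make dividing blasts stop growing, attach to plastic and take on traits of macrophages. Interferon-stimulated genes are a separate programme, usually switched on when cells sense foreign or misplaced nucleic acid.

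AP-1 binds the heptamer TGAGTCA, known as the TPA response element. Among 93 named members of the gene lists that rose by at least 2-fold, 66 had a promoter window in RefSeq (GRCh38.p14). A window ran from 250 bases before to 50 after the start of the gene. In 6 of these genes a window held the heptamer on either strand (TGAGTCA or TGACTCA). Counted per window, it was present in 4.95% of all 35116 windows of 300 bases in that table. Counted per gene, a window held it in 538 of 10440 protein-coding genes tested that had a window (5.15%). Among those called higher by at least 2-fold the count was 125 of 1327 (9.42%). CSF1R and CD36 were left out because the table lists several starts for them, a choice made after the values were seen. The 250 bases before the start of the other 4 are shown 5′ to 3′ on the strand of the gene, with the heptamer in capitals, because these genes stand for 4 of the groups described below: the receptor CD14 (chr5:140633176-140633425, minus strand), the neutrophil chemokine CXCL8 (chr4:73740319-73740568, plus strand), the DNA sensor AIM2 (chr1:159076767-159077016, minus strand) and the urokinase receptor PLAUR (chr19:43670170-43670419, minus strand).
CD14: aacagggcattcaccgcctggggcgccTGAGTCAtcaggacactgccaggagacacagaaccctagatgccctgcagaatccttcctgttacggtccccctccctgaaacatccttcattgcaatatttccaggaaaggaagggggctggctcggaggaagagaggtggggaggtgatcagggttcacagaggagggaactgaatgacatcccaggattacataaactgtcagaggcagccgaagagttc
CXCL8: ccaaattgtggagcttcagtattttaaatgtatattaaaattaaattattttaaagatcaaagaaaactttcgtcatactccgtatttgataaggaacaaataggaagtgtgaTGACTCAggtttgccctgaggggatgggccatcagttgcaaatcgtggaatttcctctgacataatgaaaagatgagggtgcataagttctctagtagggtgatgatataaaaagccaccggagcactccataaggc
AIM2: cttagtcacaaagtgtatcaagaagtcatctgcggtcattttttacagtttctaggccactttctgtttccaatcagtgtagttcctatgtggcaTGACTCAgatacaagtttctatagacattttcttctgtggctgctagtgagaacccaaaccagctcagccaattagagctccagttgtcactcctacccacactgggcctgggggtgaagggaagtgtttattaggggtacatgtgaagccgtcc
PLAUR: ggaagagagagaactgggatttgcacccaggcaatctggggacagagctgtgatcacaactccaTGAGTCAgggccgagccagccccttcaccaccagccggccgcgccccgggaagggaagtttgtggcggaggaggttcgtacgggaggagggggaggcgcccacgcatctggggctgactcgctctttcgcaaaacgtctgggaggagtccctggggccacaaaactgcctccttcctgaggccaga
The heptamer began 223 bases before the start in CD14, 137 in CXCL8, 155 in AIM2 and 186 in PLAUR. A match describes the letters only.

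The 3 untreated SKO libraries held 33916842 to 41670914 counted reads and the 3 TPA-treated ones 37980138 to 43100577. Reads were found in 20550 to 21019 genes without and 22467 to 23136 with TPA. The 8 MOLM-13 and OCI-AML-3 libraries, which had no TPA but stand in the same table as the TPA-treated libraries, had reads in 21579 to 23449 genes. Mitochondrial genes took 6.21 to 6.49% of reads in the untreated and 5.17 to 5.51% in the treated libraries, and the part of this shift in the results was not tested. Replicates of a group were close, with r between 0.989 and 0.991 over log2 levels. Untreated replicate 1 has another lane code than replicates 2 and 3. Without it 5106 genes rose and 5029 fell, close to the counts below. The labels do not say whether replicates were grown apart, and p-values therefore reflect no more than the spread among these libraries. Levels are CPM, read counts scaled to a common library size after TMM normalization. A gene was called when the adjusted p of edgeR's quasi-likelihood test was under 0.05, and changes are given in log2 ± SE. The SE is the size of the log2 change divided by the square root of the F statistic of that test. It can be too small where a group had few reads.

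The targeted gene did not show the label. SUV39H1 stood at 110.9, 114 and 106.4 CPM in the untreated SKO libraries, above the mean of 65.0 CPM in untreated sgControl cells, and at 54.9, 55.5 and 50.4 CPM with TPA. Counts per gene cannot show an edit that leaves the transcript in place, and 21.2% of its exon bases also belong to other genes. SKO therefore means "labelled SKO" throughout, also where a direction against sgControl is given. SUV39H1 fell by 1.04 ± 0.05 with TPA (adjusted p = 2.09e-20). SUV39H2 fell by 0.74 ± 0.07, from 34.3 to 35.8 CPM down to 20.3 to 21.2 CPM.

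TPA-treated SKO cells differed from untreated ones across most of the transcriptome, with 10682 of 16989 tested genes called (62.9%). Of these, 5354 rose (31.5% of genes tested) and 5328 fell (31.4%). Changes of at least 2-fold were mostly upward: 2696 genes rose (15.9%) and 773 fell (4.55%) by that much. The median over all genes tested was 0.04. All 3 treated libraries lay above all 3 untreated ones for 5839 genes (34.4%) and below them for 5653 (33.3%). Groups that do not overlap were therefore common among all genes tested. Of the 2696 rises, 805 were among the 1347 tested genes under 0.1 CPM in untreated SKO cells (59.8% of them, median 2.65). Only 6 of those genes fell at least 2-fold. Among the 2355 genes at 100 CPM and over, 69 rose (2.93%) and 98 fell (4.16%) by that much, with a median of -0.23. The filter on low counts covered all 18 U937 libraries. Genes under 0.1 CPM passed it through other libraries, those of treated SKO cells or of sgControl or DKO cells.

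Per length of gene, and with mitochondrially encoded genes left out, SPP1 was the second most abundant message of TPA-treated SKO cells. SPP1 encodes the secreted phosphoprotein osteopontin. It stood at 0.0731, 0.184 and 0.119 CPM without and at 16600, 16780 and 16680 CPM with TPA. It went from 14 of 114000837 reads to 2013710 of 121384434, or 1.66% of all reads counted. SPP1 rose by 17 ± 0.08, more than any other gene tested. In the alternatives run the rise was 16.7 to 17.4, so the SE is too narrow for a gene with 14 reads without TPA. Per length of gene (RPKM, reads per kilobase scaled to library size), SPP1 moved from rank 16016 to rank 2. FTL, the ferritin light chain, was first in both states. Ranks here and below leave out mitochondrially encoded genes.

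Collagenase MMP1 went from 1.05, 1.40 and 1.19 to 2522, 2575 and 2496 CPM. It reached RPKM rank 7. The apoptosis inhibitor BCL2A1 reached rank 10, the monocyte chemokine CCL2 rank 14 and the lysosomal protease CTSB rank 20. In the other direction the granule protease CTSG, rank 7 in untreated cells, went to rank 365.

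**Figure D1:**
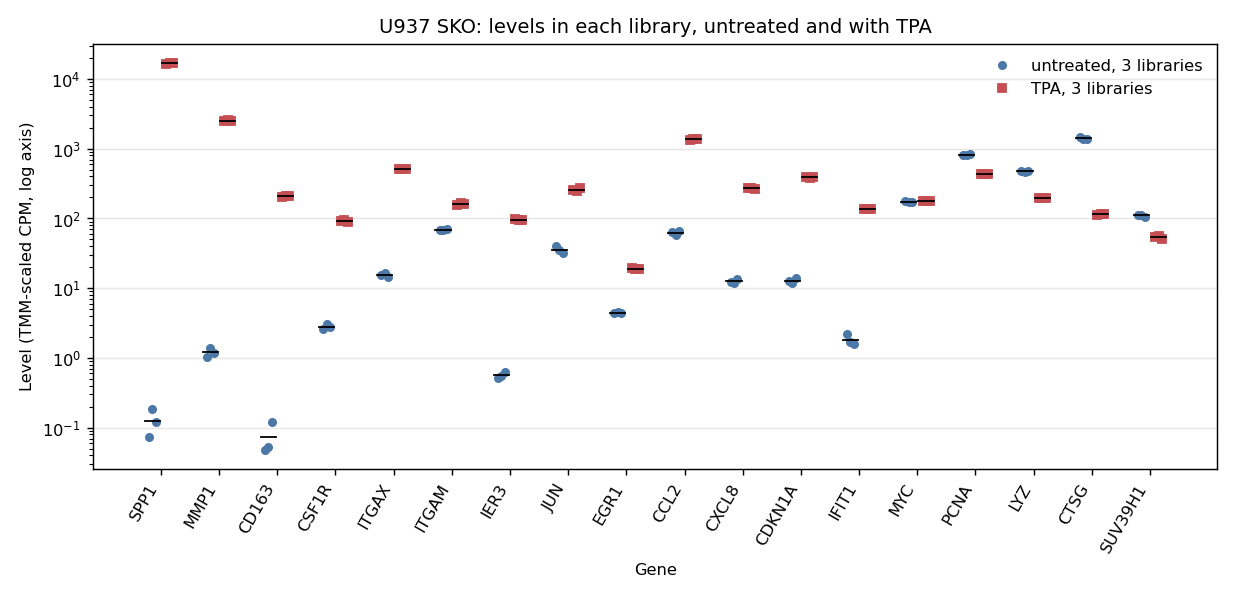
Levels of 18 genes in each of the 6 SKO libraries (CPM, log axis), untreated and TPA-treated, 1 point per library and a black line at each mean. The groups do not overlap except for MYC. Over all genes tested, the treated libraries lay wholly above in 34.4% and wholly below in 33.3%. With TPA the 3 libraries lie close together, as for SPP1 between 16600 and 16780 CPM. Without TPA they spread more for genes with few reads, such as SPP1 and CD163.

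Genes for protein kinase C and other phorbol-binding proteins went both ways: of 21 tested, 3 rose and 12 fell, 1 and 4 of them at least 2-fold, with a median of -0.13. PRKCB, a kinase isoform of blood cells, rose by 0.39 ± 0.03 from 554 to 564 CPM up to 715 to 753 CPM. MARCKS, a membrane-bound substrate of the kinase, fell by 2.02 ± 0.06 from 92.9, 95 and 93 to 22.9, 22.6 and 23.9 CPM. RASGRP3, a phorbol-binding activator of Ras, rose by 7.89 ± 0.14 from at most 0.357 CPM to at least 67.8 CPM.

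Immediate early and AP-1 genes were higher as a group: 24 of 29 rose, 19 of them at least 2-fold, and 1 fell, with a median of 1.80. JUN stood at 40.3, 34.8 and 31.7 CPM without and 256, 245 and 276 CPM with TPA. FOS stood at 6.48, 5.50 and 4.76 CPM without and 42.1, 45.5 and 40.7 CPM with TPA. The groups did not overlap for either gene. EGR1, a zinc finger factor induced by ERK, rose by 2.10 ± 0.10 to 18.8 to 19.7 CPM. The early response gene IER3 rose by 7.42 ± 0.09 from 0.512, 0.553 and 0.625 to 98.4, 95.3 and 96.0 CPM, although 32.9% of its exon bases are shared with other genes.

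Genes that damp ERK signalling rose too, 11 of 14, with a median of 1.35, while 3 fell. The phosphatase DUSP6 rose by 2.02 ± 0.05 to 165, 174 and 169 CPM from 39.7, 38.9 and 46.7 CPM. SPRY2, an inhibitor of receptor signalling, rose by 1.28 ± 0.04, and DUSP1, which inactivates MAP kinases, by 3.99 ± 0.14. The treated libraries were above the untreated ones for all 3 genes.

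Of 23 myeloid transcription factors 12 rose and 8 fell, with a median of 0.34. MITF and PPARG, factors of osteoclasts and of lipid metabolism, rose by 2.64 ± 0.08 and 2.14 ± 0.05. SPI1, the factor PU.1 that all myeloid cells need, rose by only 0.34 ± 0.04. The factors that fell included GFI1, a repressor of granulocyte precursors, by 1.86 ± 0.04, and MYB, a factor of immature blood cells, by 1.15 ± 0.03. MYC, a driver of growth, was at 178, 171 and 172 CPM without and 176, 179 and 179 CPM with TPA (log2 change 0.03 ± 0.03, adjusted p = 0.392). With a stricter filter on low counts the same change of MYC, at 0.08, was called.

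Macrophage surface receptors were among the strongest groups. Of 33 tested, 28 rose, 27 of them at least 2-fold, and 5 fell, with a median of 3.31 that ranged from 2.94 to 4.03 when single libraries were left out. The scavenger receptor CD163 went from 0.0488, 0.0526 and 0.119 to 204, 208 and 208 CPM. CSF1R, the receptor for macrophage colony-stimulating factor, went from 2.61, 3.05 and 2.74 to 93.1, 93.9 and 88.1 CPM. ITGAX (CD11c) went from 15.2, 16.4 and 14.6 to 507, 515 and 505 CPM. In each of these the treated libraries lay far above the untreated ones. ITGAM (CD11b), often used to follow this differentiation, began at 68.1, 68.8 and 70.7 CPM and rose by 1.23 ± 0.04 to 156, 167 and 163 CPM.

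CD14, the receptor whose promoter is shown above, rose by 6.69 ± 0.34 but only to 5.51 to 5.99 CPM. CD68, a lysosomal protein much used as a macrophage marker, had 9 reads in the untreated and 49 in the treated libraries. MSR1, a scavenger receptor, had 2 reads without TPA and 37.0 to 39.1 CPM with it. The members that fell included CX3CR1, the fractalkine receptor, by 1.33 ± 0.10, and the chemokine receptor CCR2, by 2.03 ± 0.32. In bulk samples a smaller number of cells of a type and less RNA per cell cannot be told apart.

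Among 24 integrin and adhesion genes 17 rose and 4 fell (median 1.04). ITGB2, the beta chain that pairs with ITGAM and ITGAX, was abundant before treatment at 1403, 1312 and 1266 CPM and rose by 0.83 ± 0.03. ICAM1, its ligand, rose by 1.94 ± 0.05 to 194 to 201 CPM, with 25.4% of its exon bases shared with other genes. Of 29 actin and cytoskeleton genes 15 rose and 9 fell (median 0.38). The intermediate filament gene VIM rose by 3.43 ± 0.04 to 420, 440 and 424 CPM from 38.0, 39.4 and 41.7 CPM, and the nuclear lamin gene LMNA by 1.00 ± 0.04.

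Secreted proteases, their inhibitors and matrix genes rose in 21 of 23 cases, 17 at least 2-fold, and fell in 1. Their median was 5.44, or 4.09 with members at 0 reads set to a floor of 3 reads, and 2.57 with all 35 libraries in the fit. PLAUR went from 58.5, 56.9 and 53.1 to 940, 958 and 965 CPM, a rise of 4.09 ± 0.04. SERPINB2, the inhibitor that acts on the ligand of PLAUR, rose by 2.60 ± 0.04 to 392 to 405 CPM. Gelatinase MMP9, a common marker of this treatment, rose by 5.99 ± 0.37, to no more than 7.98 CPM.

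Of 37 lysosome and phagosome genes 27 rose and 6 fell (median 0.81). The cholesterol exporter of lysosomes, NPC1, went from 174, 182 and 177 to 1808, 1868 and 1832 CPM. CTSB went from 800, 796 and 794 to 6066, 6090 and 6047 CPM. Not all members moved that way: LYZ (lysozyme) fell by 1.28 ± 0.04, from 478, 463 and 479 to 195, 194 and 194 CPM, and LAMP1 by 0.37 ± 0.03. CTSD was at 1478 to 1728 CPM without and 1506 to 1553 CPM with TPA (log2 change -0.08 ± 0.04, adjusted p = 0.094), but was called without untreated replicate 3 (-0.15) and without a filter on low counts (-0.09). LYZ and CTSD share 34.7% and 48.0% of their exon bases with other genes.

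All 6 genes for subunits of the NADPH oxidase, which makes superoxide in phagocytes, rose (median 1.88). The catalytic subunit CYBB went from 21.5, 22 and 20.9 to 266, 263 and 255 CPM, a rise of 3.60 ± 0.05. The value of NCF1 is uncertain because NCF1B and NCF1C are near-identical copies.

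Chemokine and cytokine genes rose in 33 of 41 cases, 31 at least 2-fold, and fell in 1 (median 3.07). CCL2 went from 63.9, 58.4 and 65.4 to 1344, 1379 and 1379 CPM. CXCL8 went from 12.2, 11.9 and 13.6 to 271, 276 and 265 CPM. The inflammatory cytokine IL1B went from 3.02, 3.21 and 2.92 to 113 CPM in each library. TNF, another such cytokine, rose by 3.35 ± 0.08 to 59.6 to 62.8 CPM. Of 21 regulators of NF-kB 17 rose and 2 fell, with a smaller median of 0.68. The inhibitor NFKBIA rose by 0.68 ± 0.07, and RELB, a subunit of the alternative pathway, by 3.06 ± 0.10.

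**Figure D2:**
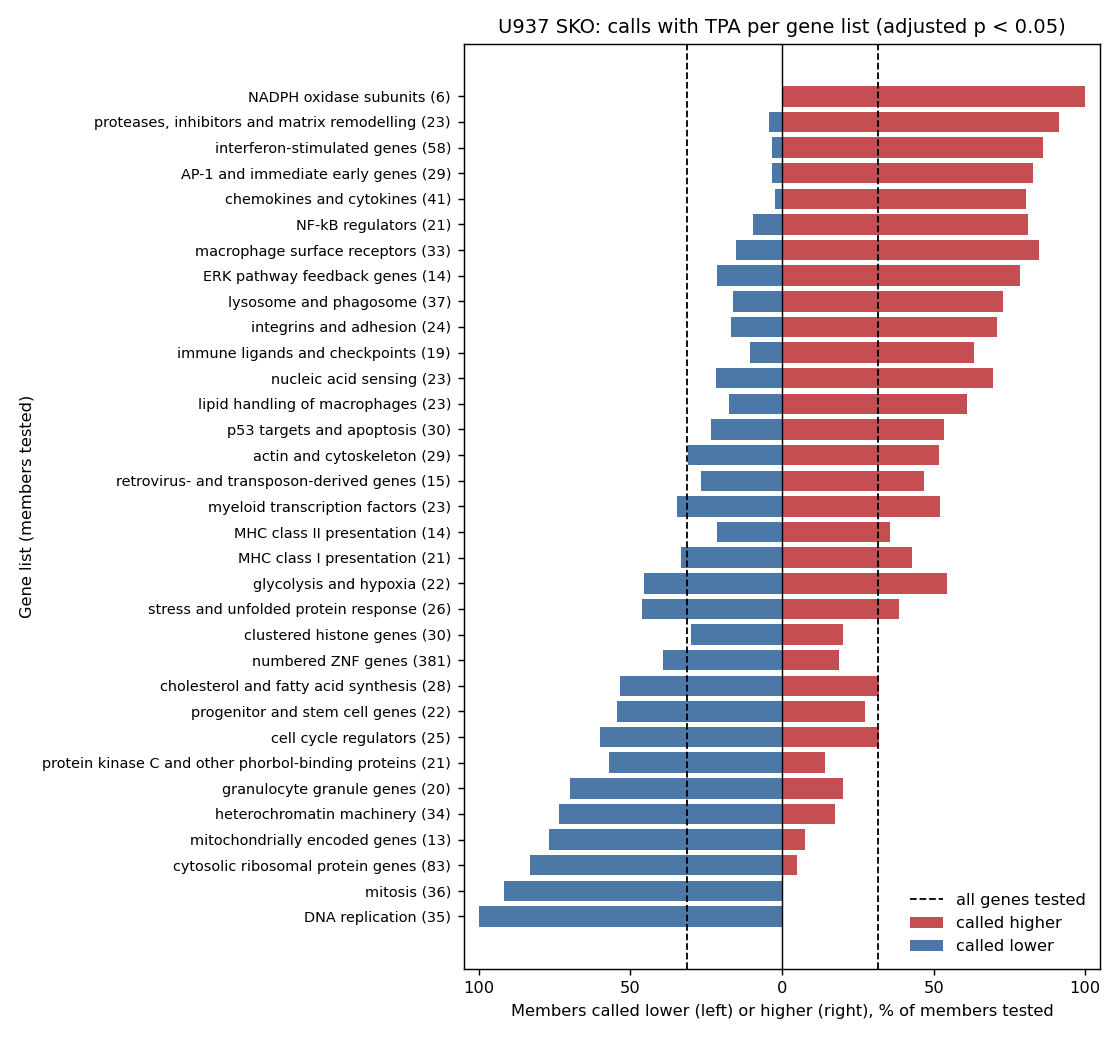
Share of tested genes per list that rose or fell in SKO cells with TPA at adjusted p under 0.05 (percent). The erythroid, megakaryocyte, lymphoid, stromal and dendritic marker lists are left out. Dashed lines give the shares over all genes tested, 31.5% for rises and 31.4% for falls.

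Interferon-stimulated genes rose widely in SKO cells. Of 58 tested, 50 rose, 45 of them at least 2-fold, and 2 fell, with a median of 2.37. Their summed level was 2089 to 2159 CPM in the untreated and 7698 to 7893 CPM in the treated libraries. IFIT1, which binds foreign RNA, went from 2.19, 1.68 and 1.61 to 135, 136 and 137 CPM, a rise of 6.20 ± 0.09. ISG15, a ubiquitin-like protein, went from 15.9, 14.8 and 12.5 to 204, 193 and 197 CPM. The groups did not overlap for either gene. OAS1, which senses double-stranded RNA, rose by 5.19 ± 0.08 to 162 to 169 CPM. MX1, often read as a marker of interferon, stayed low, at 2.00, 2.34 and 2.83 CPM without and 1.74, 2.10 and 1.58 CPM with TPA (log2 change -0.40 ± 0.23, adjusted p = 0.132). The 2 that fell were GBP4 by 1.91 and IFITM2 by 0.15, and between 0 and 3 members fell in other settings.

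Of 23 genes for sensors of nucleic acids and microbes 16 rose and 5 fell (median 0.31). AIM2 went from 0.829, 0.526 and 0.536 to 13.2, 14.1 and 13.2 CPM. The bacterial lipoprotein receptor TLR2 rose by 2.55 ± 0.06, and the DNA sensor CGAS by 0.24 ± 0.07. Antigen presentation showed no such shift. Of 21 genes of MHC class I presentation 9 rose and 7 fell (median 0.01), with HLA-E up by 1.46 ± 0.04 and B2M, the shared light chain, by 0.41 ± 0.03. Of 14 MHC class II genes 5 rose and 3 fell (median 0.01). CD74, the invariant chain, fell by 0.45 ± 0.06 to 27.6 to 29.4 CPM. Of 19 immune ligands and checkpoint genes 12 rose and 2 fell (median 0.44). Among them the inhibitory receptor HAVCR2 (TIM-3) rose by 7.22 ± 0.10 to 168 to 174 CPM.

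Many genes of immature cells and of granules were lower. Of 20 granule genes 14 fell, 13 at least 2-fold, and 4 rose (median -1.38). CTSG went from 1462, 1376 and 1393 to 112, 115 and 117 CPM. Neutrophil elastase (ELANE) went from 365, 342 and 269 to 47.3, 43.6 and 47.6 CPM, and proteinase 3 (PRTN3) fell by 2.74 ± 0.08. The calcium-binding S100A9 rose by 2.23 ± 0.08, and MMP8, neutrophil collagenase, by 6.41 ± 0.12. Of 22 progenitor and stem cell genes 12 fell and 6 rose (median -0.55), with MEIS1, a factor of leukaemic stem cells, down by 1.53 ± 0.05 and BCL11A, a repressor of fetal globin, by 1.81 ± 0.07. The progenitor surface marker CD34 rose by 2.54 ± 0.49, from 0.585, 0.579 and 0.536 to 6.12, 1.81 and 2.05 CPM, and by 1.76 without treated replicate 1. GATA2, a factor of blood stem cells, had no called change (171 and 202 reads).

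Genes of dividing cells fell almost without exception, but by modest amounts. All 35 DNA replication genes fell, 8 of them at least 2-fold, with a median of -0.84. PCNA, the sliding clamp, went from 821, 808 and 828 to 436, 430 and 431 CPM, a drop of 0.92 ± 0.04 in log2. Of 36 mitosis genes 33 fell and 0 rose (median -0.68). MKI67, the proliferation marker Ki-67, went from 1235, 1346 and 1247 to 875, 887 and 890 CPM. CDKN1A, the inhibitor p21 that holds cells before replication, went from 12.6, 12 and 13.9 to 390, 385 and 399 CPM, a rise of 4.93 ± 0.06. CDKN2B, another inhibitor of cyclin-dependent kinases, rose by 2.31 ± 0.11, and E2F2, a factor that drives S-phase genes, fell by 1.28 ± 0.06. Of 25 cell cycle regulators 8 rose and 15 fell (median -0.32). Of 30 p53 target and apoptosis genes 16 rose and 7 fell (median 0.30).

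The machinery of heterochromatin, to which SUV39H1 belongs, fell in 25 of 34 cases and rose in 6 (median -0.49). UHRF1, which brings DNA methyltransferase to new DNA, fell by 1.27 ± 0.04, the heterochromatin proteins CBX5 and CBX1 by 0.87 ± 0.05 and 1.05 ± 0.05, and the nuclear lamin LMNB1 by 1.08 ± 0.04. The methyltransferase DNMT3A rose by 1.14 ± 0.05. Of 15 genes derived from retroviruses or transposons 7 rose and 4 fell (median 0.45). ERV3-1, an envelope gene of an endogenous retrovirus, went from 0.902, 0.868 and 0.923 to 8.19, 8.70 and 7.57 CPM.

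Metabolic groups were mixed. Lipid handling genes of macrophages rose in 14 of 23 cases and fell in 4 (median 1.32). The fatty acid receptor CD36 went from 202, 204 and 210 to 686, 707 and 711 CPM. Of 28 genes of cholesterol and fatty acid synthesis 9 rose and 15 fell (median -0.14), and of 22 glycolysis and hypoxia genes 12 rose and 10 fell (median 0.14). Of 26 stress genes 10 rose and 12 fell (median -0.01). HMOX1, which degrades haem, rose by 2.69 ± 0.06 and PHGDH, the first enzyme of serine synthesis, fell by 1.71 ± 0.05. Ribosomal protein genes fell in 69 of 83 cases, with a median of -0.31, and mitochondrially encoded genes in 10 of 13 (median -0.25). Of 381 numbered ZNF genes 72 rose and 149 fell (median -0.17), and of 30 clustered histone genes 6 rose and 9 fell (median -0.23).

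Markers of other blood and tissue cells stood beside these changes. The 18 lymphoid markers, 13 of them tested, had 2 rises and 7 falls (4 falls without treated replicate 3, 5 without treated replicate 2 or untreated replicate 3) and a summed level of 216 to 223 CPM without and 164 to 167 CPM with TPA, most of it the cytotoxic granule gene NKG7 (193 to 198 and 91.8 to 94.9 CPM). The members went opposite ways: IL7R, the interleukin-7 receptor, rose by 5.88 ± 0.12, from 0.341, 1.29 and 1.31 to 53.9, 57.5 and 56.9 CPM. CD8A and MS4A1 were at 0 reads in all 6 libraries. The T cell receptor subunit CD3E was at 0.39, 1.79 and 2.08 CPM in untreated replicates 1 to 3 and at 0.0995, 0 and 0 CPM in the treated libraries. The kinase LCK was at 0.634, 1.58 and 2.68 CPM and then at 0 in all 3. Of 8 tested megakaryocyte markers 4 rose, with a summed level of 1.34 to 2.17 CPM that became 60.4 to 64.3 CPM, nearly all of it VWF (2 reads without, 54.8 to 57.9 CPM with TPA), while PF4 and GP9 were at 0. HBA1 and HBA2 of the erythroid list and EPCAM and CDH5 of the stromal list were at 0 as well. The summed erythroid level was 13.8 to 14.7 CPM and then 9.5 to 9.8 CPM. The stromal one was 178 to 189 CPM and then 603 to 614 CPM, nearly all of it PECAM1. The summed level of dendritic markers was 13.3 to 13.9 CPM and then 19.4 to 21.2 CPM. The part of these cell types in the results was not tested.

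Outside the lists, the largest rises among well-expressed genes included A2M, a broad protease inhibitor, TDO2, which degrades tryptophan, RGS1, which shortens G protein signals, and EMP1, a membrane protein. TDO2 went from 0.0488, 0.0526 and 0.0595 to 153, 157 and 151 CPM. RGS1 went from 0.634, 0.895 and 1.07 to 603, 599 and 597 CPM. The largest falls included MLC1, by 3.18 ± 0.07, the blood cell factor NFE2, by 3.00 ± 0.08, and MS4A3, a gene of granulocyte and monocyte precursors, by 2.92 ± 0.06.

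Many of the changes were shared with the other U937 cells. Of all genes tested, 67.7% were called in sgControl and 73.1% in DKO cells. Of 3469 SKO genes called at 2-fold or more, 2698 were called the same way in sgControl cells, 59 the opposite way and 712 not at all. Genes that rose at least 2-fold in both, 1880, were 69.7% of those in SKO and 62.6% of those in sgControl cells. The 411 that fell at least 2-fold in both were 53.2% and 30.8%. The lists overlapped with DKO cells by 79.8% of the SKO rises and 58.9% of the DKO rises, and by 70.4% of the SKO falls and 20.2% of the DKO falls. These comparisons share no library, but all of them cross the same pair of tables. The header names of untreated SKO and sgControl libraries share a number code that those of untreated DKO libraries lack. The part of this in the results was not tested. At 2-fold or more 17.7% of genes rose and 7.85% fell in sgControl, and 21.5% and 15.8% in DKO.

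The difference between the SKO and the sgControl response was tested directly, and called where it was at least 1 in log2. It was higher in SKO for 607 genes (3.57%) and lower for 543 (3.2%). Both responses in it cross the same pair of tables. For the named genes below, the call held in every setting tried, single libraries left out included.

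The interferon group differed most clearly: 39 of its 58 genes were called higher and 0 lower, and its median response was 0.62 in sgControl against 2.37 in SKO. IFIT1 averaged 1.91 CPM without and 2.7 CPM with TPA in sgControl cells, so the SKO response was larger by 5.71 ± 0.21. ISG15 differed by 2.95 ± 0.10, OAS1 by 2.24 ± 0.20 and IFIT2 by 3.74 ± 0.19. For GBP1, a GTPase induced by interferon, the sgControl change was -2.39 and the difference 5.90 ± 0.48. The sialic acid receptor SIGLEC1, itself inducible by interferon, rose by 7.46 ± 0.12 to 244 to 249 CPM, larger than in sgControl by 4.73 ± 0.70. AIM2 differed by 1.48 ± 0.23. MX1 showed no called difference (0.01 ± 0.33).

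**Figure D3:**
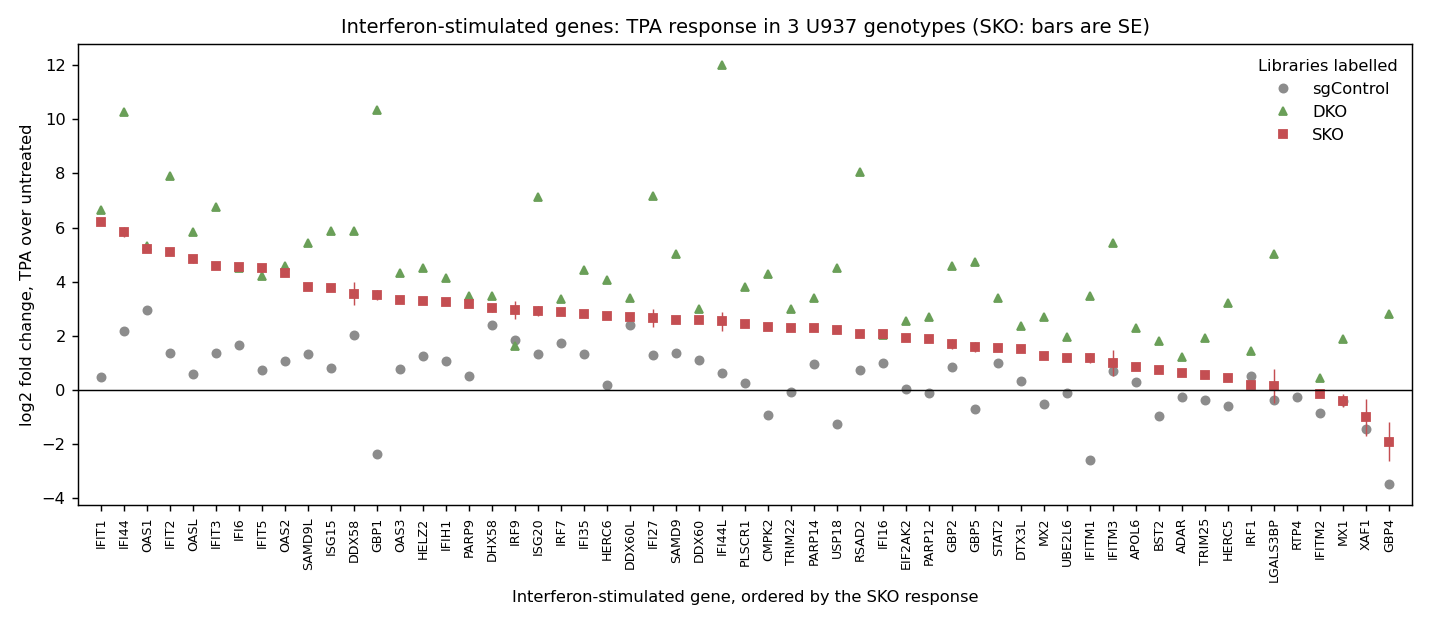
TPA response (log2, y axis) of 57 interferon-stimulated genes in SKO cells (with SE bars), sgControl cells and DKO cells, genes ordered by the SKO response. Points are left out where a group had 0 reads. In 53 of the 58 genes tested the fitted SKO response lies between the others, whose medians are 0.62 (sgControl) and 4.18 (DKO) against 2.37. The 58 include RTP4, which had 0 reads in the SKO libraries. The share of all genes tested with this order was not computed.

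Macrophage genes differed in both directions. ITGAM rose by 4.56 in sgControl cells, from 4.13 to 97.1 CPM, and by 1.23 in SKO cells, a difference of -3.33 ± 0.08. The treated level was higher in SKO, 162 against 97.1 CPM, and so was the untreated one, 69.2 against 4.13 CPM. The same held for ITGAX (-2.24 ± 0.13), which went from 1.45 to 223 CPM in sgControl and from 15.4 to 509 CPM in SKO. The SKO response was also smaller for CD36 (-2.10 ± 0.05), ITGB2 (-1.26 ± 0.05), the matrix protein FN1 (-2.23 ± 0.18) and LMNA (-1.46 ± 0.06). For CX3CR1, which fell in SKO cells, it was more negative than in sgControl cells (-1.29 ± 0.16). The SKO response was larger for CSF1R (1.16 ± 0.13), CYBB (1.80 ± 0.10) and SPP1 (4.24 ± 0.26), which reached 5086 CPM in sgControl and 16690 CPM in SKO cells. SPP1 had only 14 reads over the untreated SKO libraries, so the size of its difference rests partly on few reads.

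Some genes moved in opposite directions. LYZ rose by 1.24 in sgControl cells, from 264 to 625 CPM, and fell by 1.28 in SKO cells, from 473 to 195 CPM (difference -2.52 ± 0.06). EGR1 fell by 0.55 in sgControl and rose in SKO cells (2.65 ± 0.14). NLRP7, an inflammasome-related gene, rose by 1.70 and fell by 1.72 (-3.43 ± 0.15). MYC fell from 498 to 135 CPM in sgControl cells and stayed at 174 and 178 CPM in SKO cells (1.92 ± 0.05). CTSD rose by 1.5 in sgControl cells and had no called change in SKO cells (-1.58 ± 0.06).

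Other differences touched signalling, cytokines and granules. JUN (-1.25 ± 0.09), EGR2 (-1.38 ± 0.30) and TNF (-1.35 ± 0.13) rose less in SKO cells. DUSP1 (1.66 ± 0.21), IL1B (1.73 ± 0.11) and RELB (1.37 ± 0.14) rose more. CTSG (2.62 ± 0.06), ELANE (1.27 ± 0.11), PRTN3 (2.17 ± 0.13) and MS4A3 (1.62 ± 0.09) fell less far than in sgControl cells, whereas E2F2 (-1.17 ± 0.09) and FRMD6 (-2.01 ± 0.34) fell further. S100A9 rose less (-1.53 ± 0.12), and TDO2 (5.27 ± 0.45) rose more. ERV3-1 had a change of -0.04 in sgControl cells and differed by 3.22 ± 0.30.

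**Figure D4:**
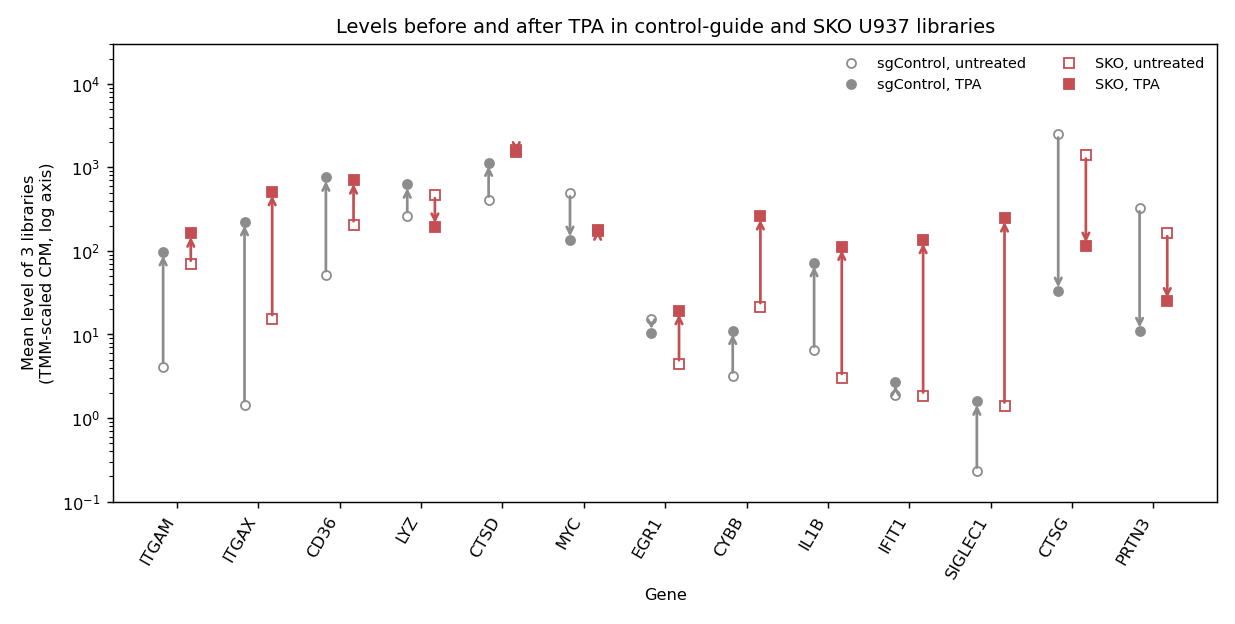
Mean levels (CPM, log axis) of 13 genes in sgControl and SKO cells, each the mean of 3 libraries, with arrows from untreated (open) to TPA-treated (filled). ITGAM and ITGAX start higher in SKO cells (69.2 and 15.4 CPM against 4.13 and 1.45), and IFIT1 reaches 136 CPM with TPA in SKO against 2.7 CPM in sgControl cells.

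Against DKO cells the SKO response was higher for 1412 genes (8.31%) and lower for 895 (5.27%). The first count depended on the scaling, at 2333 with library totals alone, and so did the second, at 575. Interferon genes were called lower in 37 of 58 cases and higher in 1, and the DKO median was 4.18. ISG15 (-2.12 ± 0.08), IFIT2 (-2.78 ± 0.15), GBP1 (-6.83 ± 0.44) and RSAD2, which blocks viral replication (-5.99 ± 0.18), rose less in SKO than in DKO cells. IFIT1 had no called difference (-0.44 ± 0.14), with an untreated level of 12.5 CPM and a treated level of 1247 CPM in DKO cells. SIGLEC1 rose more in SKO cells (2.99 ± 0.18).

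MHC class I genes had 0 higher and 12 lower calls of 21 against DKO cells, whose median was 1.43. B2M (-1.53 ± 0.04) and the peptide transporter TAP1 (-2.54 ± 0.07) were among them. DUSP6 (-2.18 ± 0.07), SERPINB2 (-2.23 ± 0.05), CCL2 (-1.85 ± 0.06), IL1B (-1.74 ± 0.13) and CDKN1A (-1.55 ± 0.08) also rose less in SKO cells. Of 35 DNA replication genes 14 were called higher and 0 lower, with medians of -0.84 in SKO and -1.82 in DKO. Of 36 mitosis genes 3 were called higher and 1, UBE2C, lower (-2.07 ± 0.34), a share of higher calls near that of all genes. Among the DNA replication genes called higher was MCM2, a helicase subunit (1.36 ± 0.06, 23.6% of exon bases shared). MYB, from the list of myeloid transcription factors, was called higher too (1.62 ± 0.05). NPC1 (1.94 ± 0.05) and CD180, a receptor related to TLR4 (3.13 ± 0.11), rose more in SKO cells. MYC fell by 2.06 in DKO cells, a difference of 2.09 ± 0.05.

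**Figure D5:**
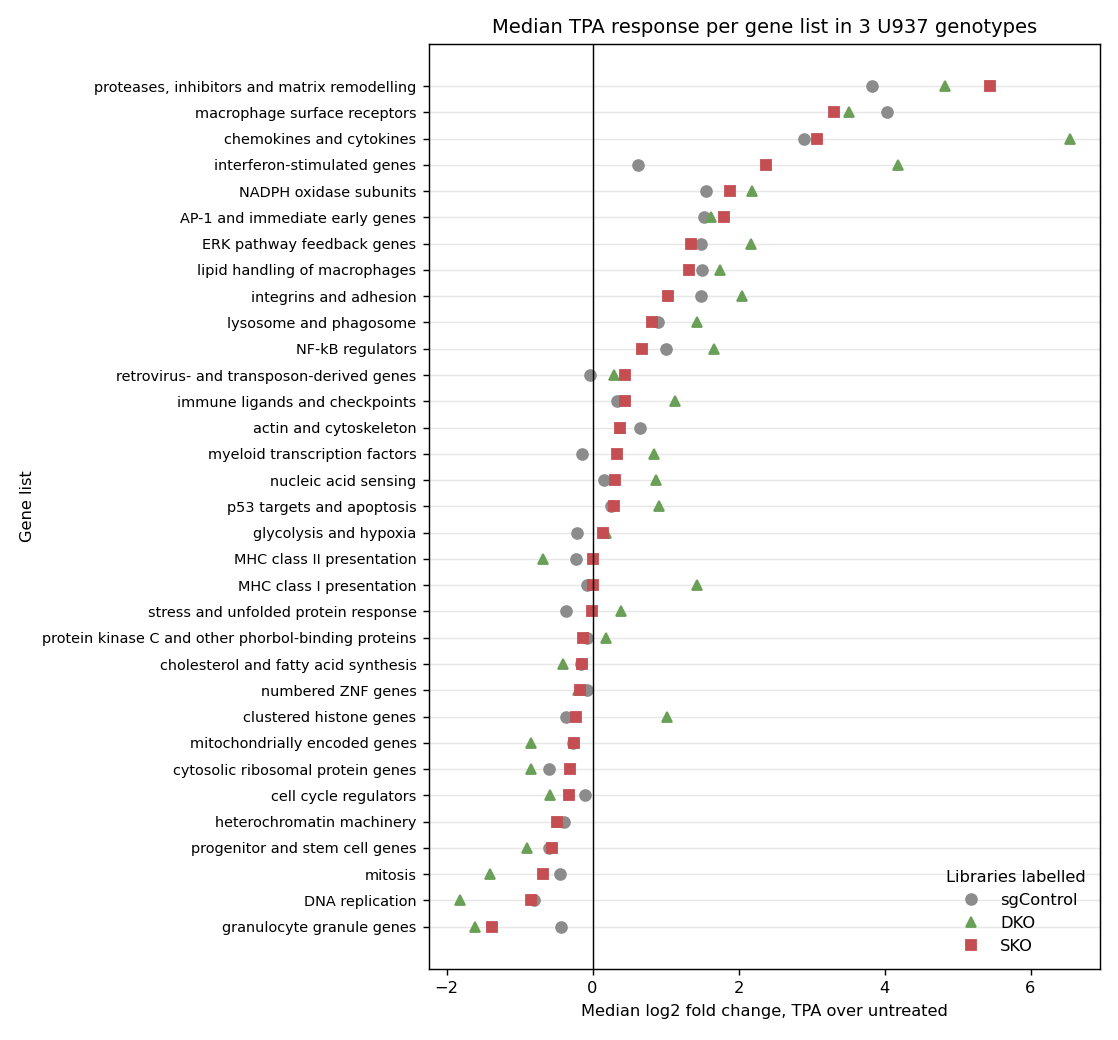
Median TPA response (log2, x axis) of the tested genes per list in sgControl, SKO and DKO cells, 1 point per genotype, with a line at 0. The erythroid, megakaryocyte, lymphoid, stromal and dendritic marker lists are left out. Interferon-stimulated genes run 0.62, 2.37 and 4.18 and DNA replication genes -0.80, -0.84 and -1.82.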

How the data were processed

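Poly(A) RNA of U937 cells was sequenced from 3 libraries for each of 6 groups. Reads were trimmed with fastp 0.23.4, aligned with STAR 2.7.11b to hg38 and counted with featureCounts of Subread 2.0.6, per the submitters' processing notes. The deposited values are raw counts per gene name (GENCODE 38, per the file headers of the untreated table), made without a strand option although the kit was directional, so reads that overlap several genes or map repeatedly were left out. The table with the TPA libraries carries no counting command, but lists the same genes. Counts of 18 libraries were joined and fitted with edgeR 4.0.16 in R 4.3.3 (filterByExpr, TMM scaling, quasi-likelihood F-test, 6 groups, no covariates, 12 residual degrees of freedom), leaving 16989 of 59428 genes. P-values were adjusted over all genes tested with the Benjamini-Hochberg method. Differences between responses were contrasts of the same fit. The steps were tested on simulated data. Alternatives were DESeq2 1.42.0, other scalings and filters, other sets of libraries, a replicate block and each library left out. Total counts of 33916842 to 43100577 per SKO library set the precision.

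Named genes were the targeted genes, key members and the 3 largest called changes per list and direction, the 10 largest outside the lists and the 8 largest per difference. The text names part of them, and some genes are not reported here. GBP4, IFITM2, CD68, LCK, GATA2 and the markers at 0 were named after their values were seen. The comparison and the gene lists were chosen with earlier results of these data known. A fold against a group at 0 reads uses a floor of 3 reads over the group. Replicate numbers of the labels did not pair the libraries, as given below.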

Additional observations from a re-analysis of the deposited data

Results flagged for a closer look

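Every difference of response given here passed the direct test of the difference (edgeR's quasi-likelihood test, adjusted p under 0.05) and reached 1 in log2. It compares the response of libraries labelled SKO with that of libraries labelled sgControl or DKO.

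Against sgControl cells the response in SKO cells was larger for the interferon-stimulated genes IFIT1 (5.71), IFIT2 (3.74), ISG15 (2.95), OAS1 (2.24) and GBP1 (5.90), for SIGLEC1 (4.73) and AIM2 (1.48), and for ERV3-1 (3.22), TDO2 (5.27), SPP1 (4.24), CSF1R (1.16), CYBB (1.80), IL1B (1.73), RELB (1.37), DUSP1 (1.66) and EGR1 (2.65). MYC (1.92) fell in sgControl cells and not in SKO cells. The granule and precursor genes CTSG (2.62), ELANE (1.27), PRTN3 (2.17) and MS4A3 (1.62) fell less far.

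It was smaller, or more negative, for the macrophage genes ITGAM (-3.33), ITGAX (-2.24), CD36 (-2.10), ITGB2 (-1.26) and CX3CR1 (-1.29), for LYZ (-2.52) and CTSD (-1.58), for FN1 (-2.23) and LMNA (-1.46), for S100A9 (-1.53), JUN (-1.25), EGR2 (-1.38) and TNF (-1.35), and for E2F2 (-1.17), FRMD6 (-2.01) and NLRP7 (-3.43).

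Against DKO cells it was smaller for ISG15 (-2.12), IFIT2 (-2.78), GBP1 (-6.83), RSAD2 (-5.99), B2M (-1.53), TAP1 (-2.54), DUSP6 (-2.18), SERPINB2 (-2.23), CCL2 (-1.85), IL1B (-1.74) and CDKN1A (-1.55). It was larger, or less negative, for SIGLEC1 (2.99), NPC1 (1.94), CD180 (3.13), MYC (2.09), MYB (1.62) and MCM2 (1.36).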

How the results depend on the processing

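Counts of called genes in SKO cells stayed within 1.5 times their value under every alternative run. With single libraries left out, rises numbered 5106 to 5201, falls 5029 to 5153, rises of at least 2-fold 2614 to 2713 and falls of that size 737 to 821. The difference from sgControl gave 566 to 636 higher and 495 to 535 lower genes, and that from DKO 1340 to 1540 and 845 to 911. The other alternatives gave wider ranges. Rises of at least 2-fold then numbered 2080 to 2867 and falls of that size 557 to 900. For the difference from sgControl they gave 535 to 703 higher and 476 to 643 lower genes. Only the difference from DKO moved with scaling: library totals alone gave 2333 higher and 575 lower genes in place of 1412 and 895. No called result changed sign, but medians near 0 did, as for MHC class II genes (-0.14 to 0.45 with single libraries left out). Same-numbered untreated and treated libraries did not deviate together (r -0.036 to 0.041, other pairs -0.091 to 0.09). With the replicate block, 5318 genes rose and 5286 fell, 2656 and 761 at least 2-fold. The block gave 581 and 526 for the difference from sgControl and 1383 and 875 for that from DKO. It ended the difference from sgControl for CD163 and CCL3 (adjusted p = 0.0515 and 0.0542). What depth limits is the genes near 0 reads without TPA, whose folds rest on a few reads.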

Other observations

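Interferon genes themselves had few reads. Those given were picked after their values were seen. Over the 3 libraries of a group IFNB1 had 2 reads without and 12 with TPA, IFNA1 0 and 8, IFNL1 0 and 4, IFNL3 0 and 6, and IFNG 8 and 0. These counts are too small for a fold.

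Along the genome the response of SKO cells was even. Relative to all genes of sufficient level, the medians of 23 chromosomes lay between -0.1 and 0.11. Among 128 bins of 20 Mb they lay between -0.24 and 0.4, and the highest was chromosome 2 from 100 to 120 Mb, with 0.24 in sgControl and 0.17 in DKO cells.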
